A study of Mus musculus with 12 samples.

Results

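Supporting cells of the neonatal mouse utricle were described from single-cell Smart-seq2 libraries of the sensory epithelium, peeled from utricles at postnatal days 4 and 6 (P4 and P6). A cell was taken as a supporting cell when it came from the epithelial dissection and held at least 2 of the 3 markers Dkk3, Nptx1 and Agr3 at 20 CPM or more, CPM being the reads of a gene per 1000000 reads of the cell. It also had to hold fewer than 2 of the type I hair cell markers Xirp2, Kcna10 and Atp2b2, and fewer than 2 of the type II hair cell markers Slc52a3, Atoh1 and Rasd2, at 50 CPM or more. This rule found 147 supporting cells among 632 epithelial cells that passed the limits on reads, genes and mitochondrial share, a share of 23.3% (95% exact Clopper-Pearson interval 20 to 26.8). The whole table held 1155 cells, of which 684 were epithelial. Utricles of several mice were pooled, incubated with thermolysin and peeled, and single cells were sorted into plates with doublets gated out by size. The study worked with wild-type FVB and Pou4f3 DTR/+ mice of both sexes, the latter carrying a diphtheria toxin receptor in the hair cell gene Pou4f3 that was not activated. Genotype, sex, animal and plate are not given for a cell, and the cell table names only age, dissection and a sequencing batch from 1 to 6. All 39 supporting cells at P4 came from batch 6, and the 108 supporting cells at P6 came from batches 1 to 5. Supporting cells were set beside cells of the same dissection that held 2 or more markers of 1 other type. These were 135 transitional epithelial cells (TECs; Dclk1, Slc26a4, Cldn4), 186 type I hair cells and 34 type II hair cells. No cell held roof cell markers (Enpep, Steap4, Panx3) alone.

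Supporting cells are the non-sensory cells that surround every hair cell of the utricle. They anchor the epithelium to its basement membrane, carry potassium and glutamate away from hair cells, are joined by gap junctions, and secrete the gel on which the otoconia rest. In the neonate they are also the cells from which further hair cells can arise, and Notch signalling from hair cells to supporting cells holds most of them in their state. The striola, a curved central strip of the utricle, differs from the surrounding epithelium in its hair cells and in its supporting cells.

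The 3 genes of the rule chose the cells, so their levels are given as a description. In the 147 supporting cells, Agr3, a disulfide isomerase of the secretory pathway, was at 20 CPM or more in 95.9% of cells, the secreted Wnt pathway protein Dkk3 in 89.8% and the pentraxin Nptx1 in 71.4%. All 3 markers passed in 84 cells, Dkk3 with Agr3 in 42, Nptx1 with Agr3 in 15 and Dkk3 with Nptx1 in 6. Of the cells just inside the rule, the second highest of the 3 markers reached 61.1, 65.8 and 83.3 CPM. Just outside the rule it reached 17.9, 14.3 and 11.1 CPM. Few cells lay near the threshold, and 150 cells met the rule at 10 CPM and 147 at 50 CPM. Ush1c, which encodes the scaffold protein harmonin and was not used by the rule, was at 20 CPM or more in 93.2% of supporting cells, 51.1% of TECs, 81.2% of type I and 67.6% of type II hair cells. Its median over cells was 1165 CPM in supporting cells against 26.1 CPM in TECs, 165 CPM in type I and 52.3 CPM in type II hair cells. Ush1c was thus present in every class, with its level highest in supporting cells. Its exons overlap an annotated gene on the opposite strand, Gm9860, and reads of the pair cannot be told apart. In GRCm38, Dkk3 lies on chromosome 7 (112116017 to 112159057, minus strand), Nptx1 on chromosome 11 (119538719 to 119547753, minus strand) and Agr3 on chromosome 12 (35925620 to 35949736, plus strand).

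**Figure D1:**
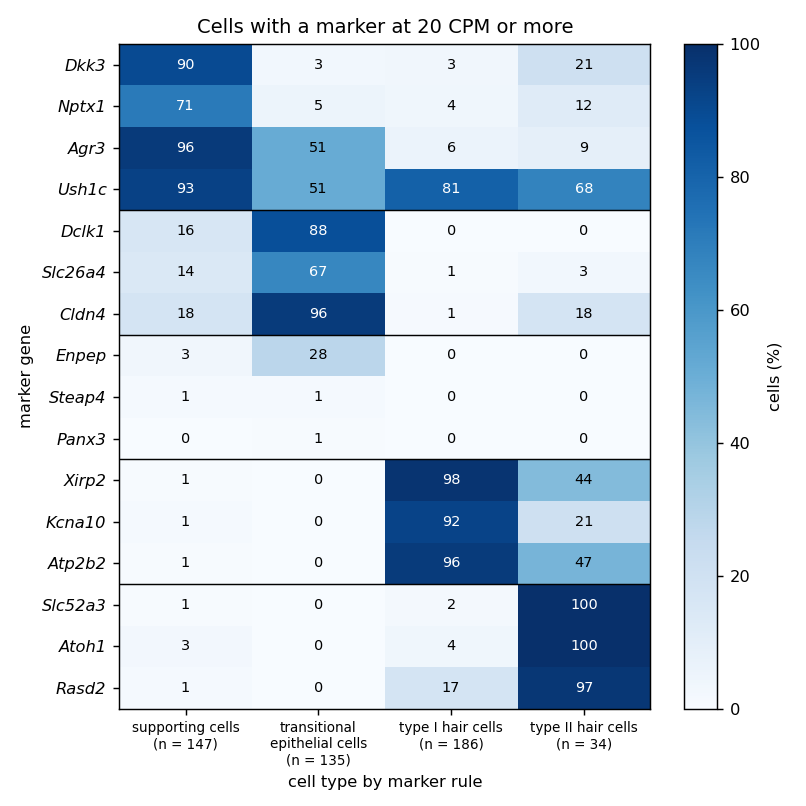
The heat map gives the share of cells (%, colour and printed value) with each marker gene (rows) at 20 CPM or more in the 4 cell classes (columns). The rule used the markers of supporting and hair cells, and of the 147 supporting cells 23.1% had a read of Cldn4.

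Supporting cells were found in every batch. Their shares of the kept epithelial cells in batches 1 to 5 were 18.3%, 25%, 22.9%, 25% and 31.6% (36, 8, 19, 20 and 25 cells), and the P4 batch 6 held 24.2% (39 cells). Median reads per supporting cell were 565025 (121621 to 1112258), with batch medians of 356896 to 821548, and a median of 2984 genes was detected, with batch medians of 2767.5 to 3517.5. The median mitochondrial share was 2.84%, 4.57% and 3.25% in batches 1 to 3 and 1.25% to 1.39% in batches 4 to 6. Batch 2 held only 8 supporting cells. Several hair cell genes stood out in it, such as Ptprq at 217 CPM against 0 to 19.4 CPM in the other batches, and it held the lowest means of Hes1 and Notch3.

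Markers of non-epithelial cells were near absent from the supporting cells. All 9 markers of 3 classes, macrophages (C1qc, Pf4, Cx3cr1), melanocytes (Mlana, Trpm1, Tspan10) and endothelium (Cldn5, Ptprb, Kdr), were at 0 in each of the 147 cells, which allows a share of up to 2.04% (3 cells of 147, the limit used for every count of 0). Of the mesenchymal, pericyte, Schwann cell and glial markers, no gene was detected in more than 2.72% of the cells. Of 18 hair cell genes, 14 were detected in at least 1 cell, led by the unconventional myosin Myo6 in 55.1%, and Ocm, Slc17a8, Insm1 and Barhl1 were at 0. At 20 CPM, 38 of the 147 cells held 2 or more of these 18 genes, and 1 cell held 2 of the type I hair cell markers of the rule. A further 9 epithelial cells held both supporting and hair cell markers and were left out by the rule.

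TEC markers were the exception, since the rule did not use them. Among the supporting cells, 17 also held 2 or more TEC or roof cell markers at 20 CPM, with 5, 2, 2, 1, 1 and 6 such cells in batches 1 to 6. Over 159 genes called higher in supporting cells than in TECs, defining markers left out, the median cell of these 17 had a mean level of 1.71 on the log2(CPM + 1) scale. The other 130 supporting cells had 4.32 and the TECs 1.01. Over the 110 genes called lower, the same 3 groups had 2.80, 0.62 and 3.48. The 17 cells thus lay between the other supporting cells and the TECs on both gene sets, nearer to the TECs. Both sets were called with these same cells, the 17 included, so the gap between the other supporting cells and the TECs follows from the choice. They held more reads (median 729386 against 546450) and more genes (3572 against 2973.5). Igfbp3 was detected in 3 of the 17 cells (17.6%) and in 75.4% of the other 130, and Jag1 in 4 (23.5%) and 86.9%. The Slc26a4 transcript was in 12 of the 17 (70.6%) and in 7.7% of the others. It is a TEC marker by which the 17 were picked, so this difference follows from the choice. Whether these wells held more than 1 cell was not tested. The comparisons below keep them, and calls of listed genes that changed without them are given with each comparison.

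Supporting cells were first compared with TECs, the non-sensory epithelium that borders them, within each of the 5 batches that held at least 5 cells of both types. Each value is the difference between the 2 batch means on the log2(CPM + 1) scale, as mean ± SD over batches. A gene was called when this mean was 2 or more in size (4-fold), had the same sign in every batch, and the type with the higher level had reads of the gene in 25% of its cells or more. Because the cells were chosen by expression, no test was made, and it is not stated that the batches hold separate animals, so the SD may be technical. Of 4790 genes compared, 163 were called higher (3.4%) and 114 lower (2.38%) in supporting cells, with a median difference over all genes of -0.12. Without the 17 cells, 180 were called higher and 149 lower, and 270 of the 277 calls were kept. Among listed genes, Tectb was then called higher, since its share of cells passed 25%, and Aldh1a3 (-2.04), Dusp6 (-2.01), Cib2 (-2.23) and Ier3 were called lower.

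The genes furthest above TECs had almost no reads there. Igfbp3, a secreted binding protein of insulin-like growth factors, had batch means of 196 to 874 CPM in supporting cells (median 577) and no read in 135 TECs, which allows a share of up to 2.22%. Ebf1, a helix-loop-helix transcription factor, likewise had 51.2 to 297 CPM and no TEC read. The endothelin receptor gene Ednrb was at 258 to 453 CPM in supporting cells, against 3.32, 0, 21.5, 0 and 3.49 CPM in the TECs of batches 1, 3, 4, 5 and 6, a difference of 6.77 ± 2.10 (n = 5 batches). Slc22a3, an organic cation transporter, was found in 58.5% of supporting cells and 1.5% of TECs, and Nrcam, a neuronal cell adhesion molecule, in 63.3% and 0.74%. Anks1b, St8sia2 and Gm266 completed the 12 genes with the largest differences, together with Dkk3, Jag1, Gjb6 and Heyl. In none of these 12 genes did the batch means of the 2 types overlap. They were picked as the largest called differences and Dkk3 is a gene of the rule, so this describes the choice. The share of all genes without overlap was not counted.

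The genes furthest below TECs included the perlecan gene Hspg2, the transcription factor gene Gata2, the apolipoprotein gene Apoa4 and the pendrin gene Slc26a4, a TEC marker. The batch means of Gata2 were 0 to 41.8 CPM in supporting cells, against 199, 142, 155, 189 and 197 CPM in TECs, a difference of -4.30 ± 1.74 (n = 5 batches). The Itgbl1 difference was -4.11 ± 0.32, with a TEC range of 647 to 1550 CPM. These differences grew without the 17 cells, to -6.93 ± 1.11 for Gata2, -7.06 ± 2.64 for Itgbl1, -6.72 ± 2.23 for Apoa4 and -7.08 ± 1.97 for Tmem176a. The 17 cells were picked by TEC or roof cell markers and these genes as lowest against TECs. Their growth is therefore not independent of the choice. Cldn4 went to -5.40, which follows from the choice, since it is a TEC marker by which the 17 cells and the TECs were picked. Gata2, for example, was detected in 10 of the 17 (58.8%) and in 3 of the other 130 (2.3%).

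Genes of the Notch pathway differed by their role in it. Notch receptors are cleaved on contact with a ligand of a neighbouring cell, and the freed fragment acts with the DNA-binding protein RBPJ on target genes of the Hes and Hey families. Of the ligand genes, Jag1 averaged 161 to 472 CPM over the 6 batches of supporting cells (median 323), against 9.73, 0, 0, 5.79 and 5.86 CPM in TECs and 1.03 to 23.6 CPM in hair cells. No batch mean of TECs or hair cells reached the lowest of the supporting cells. The difference was 6.41 ± 1.67 from TECs (n = 5) and 5.64 ± 1.17 from hair cells (n = 6). Jag1 lies on chromosome 2 (137081456 to 137116644, minus strand). Dll1 and Jag2 went the other way, at -5.18 ± 1.60 and -3.47 ± 2.46 from hair cells, and were detected in 2.0% and 4.8% of supporting cells against 30.9% and 33.6% of hair cells. Dll1 was at 0 in supporting cells of 4 batches, and its 35 CPM in batch 4 lay below the lowest hair cell batch (38.4 CPM), while Jag2 overlapped between the types.

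Among modifiers and receptors, Lfng, a glycosyltransferase that alters how Notch receptors answer their ligands, had batch means of 24.9 to 95.2 CPM in supporting cells (median 48.0) and was detected in 38.8% of them. One TEC of 135 had a read of it. Its difference from hair cells was 2.79 ± 0.93 (n = 6), without overlap. Notch1 separated supporting cells from hair cells (5.75 ± 1.60; 136 to 857 against 2.48 to 21.6 CPM) and not from TECs (0.39 ± 0.44), whose 235 to 868 CPM overlapped. Notch3 was higher than in both, by 3.94 ± 1.97 and 4.55 ± 2.30, but its supporting cell means ran from 0.112 CPM in batch 2 to 140 CPM in batch 5 and overlapped both types. Of 15 listed receptors and modifiers, 9 were compared with TECs and 2 called higher, where 3.4% of all genes were, with no gene called lower. Against hair cells 4 of 9 were called higher, Notch1, Notch2, Notch3 and Lfng, where 9.94% of all genes were.

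Notch target genes followed. Of 10 listed, 7 were compared with each type. Against TECs, 4 were called higher (Hes1, Hey1, Hey2 and Heyl), where 3.4% of all genes were, and the list median was 2.30. Against hair cells 6 were called higher, where 9.94% of all genes were, and the median was 5.08 beside -0.33 over all genes. Hes1, a repressor of the hair cell factor Atoh1, averaged 2.9 CPM in batch 2 and 85.8 to 214 CPM in the other 5 batches, against 0 to 29.6 CPM in TECs and 0 to 3.23 CPM in hair cells. It was detected in 61.2% of supporting cells, 6.7% of TECs and 1.4% of hair cells. Hey1 had 91.8 to 215 CPM in supporting cells, 0 to 45 CPM in TECs and 2.01 to 27 CPM in hair cells, without overlap. Hey2 had 18.3 to 119 CPM, and its difference from TECs, 2.30 ± 1.54, was 1.75 without batch 3 and then below the limit. Heyl differed in pattern from the other 3, since hair cells held it at 45.3 to 203 CPM, overlapping supporting cells (83.4 to 285 CPM; difference 0.53 ± 0.98), while 1 of 135 TECs had a read. The Heyl level in supporting cells was closer to type I (difference 0.40 ± 0.91) than to type II hair cells (2.68 ± 1.33, n = 3 batches). Id1, Id2 and Id3, which also answer to bone morphogenetic proteins, were 5.03 to 5.66 above hair cells and did not separate from TECs, at 1.05, 0.38 and 0.27. Notch1 and Notch3 have opposite-strand exon neighbours in the annotation, and Jag1, Lfng and Hey2 have none.

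**Figure D2:**
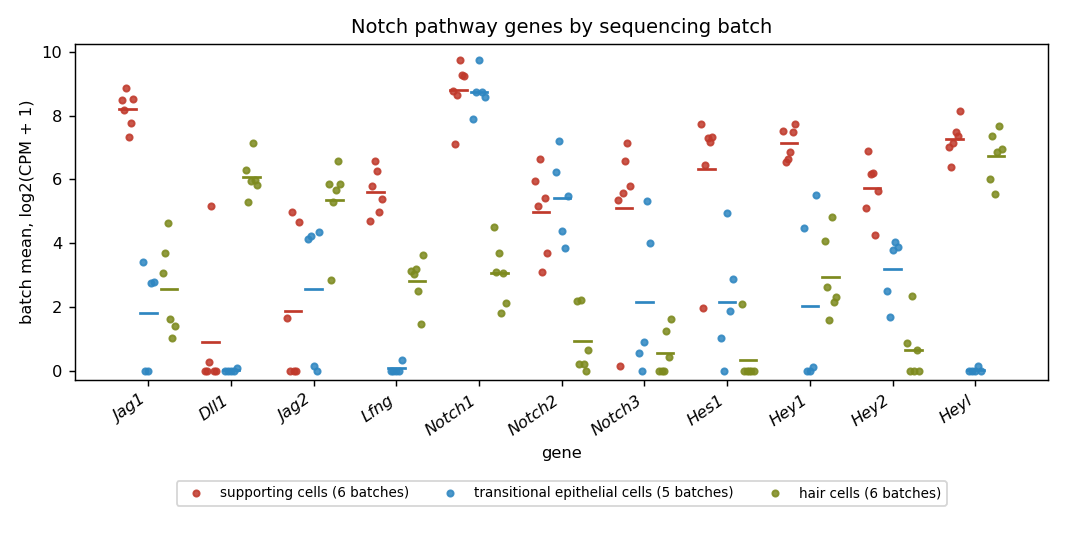
Each point is the mean of 1 sequencing batch, on the log2(CPM + 1) axis, for Notch pathway genes (horizontal axis) in supporting cells, TECs and hair cells (type I and II), and each bar is the mean over batches. Jag1 in supporting cells, at 161 to 472 CPM, lies above every batch of the other types, while Heyl overlaps between supporting and hair cells.

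The promoters of Lfng and Hey2 are shown because both genes were called higher than in both other types and both hold the core letters that RBPJ is known to bind, TGGGAA, or their reverse complement TTCCCA. The sequences are from RefSeq (GRCm38.p6), from 250 bases before to 10 after the start of transcription, 5′ to 3′ on the strand of the gene, with the 6 letters of each match in capitals. They cover chr5:140607091-140607350 (plus strand) for Lfng and chr10:30842774-30843033 (minus strand) for Hey2.
Lfng: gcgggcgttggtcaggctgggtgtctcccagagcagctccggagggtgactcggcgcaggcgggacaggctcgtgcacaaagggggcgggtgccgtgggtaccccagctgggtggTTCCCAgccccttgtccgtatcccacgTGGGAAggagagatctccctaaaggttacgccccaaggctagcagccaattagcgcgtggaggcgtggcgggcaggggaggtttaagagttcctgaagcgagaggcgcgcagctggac
Hey2: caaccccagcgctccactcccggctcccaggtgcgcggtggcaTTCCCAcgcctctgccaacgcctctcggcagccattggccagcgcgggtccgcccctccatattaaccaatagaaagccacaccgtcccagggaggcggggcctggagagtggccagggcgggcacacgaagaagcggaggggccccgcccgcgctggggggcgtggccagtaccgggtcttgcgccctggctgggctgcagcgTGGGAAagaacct
In the Lfng promoter, TTCCCA lies from -135 to -130 and TGGGAA from -108 to -103, counted from the start of transcription. In the Hey2 promoter, TTCCCA lies from -207 to -202 and TGGGAA from -3 to 3. The letters occur on either strand in 25.6% of the 32851 promoters of 300 bases and in 25% of the 28 promoters of genes on the 3 Notch lists, so the list as a whole held no more of them. Of its 30 genes, 24 had an entry, and Hes1, Hey1, Heyl, Id1 and Mfng were among those without one. A match is a run of letters and was not tied to binding.

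Among secreted signals, the gene of transforming growth factor beta 2 stood above both TECs and the pooled hair cells. Tgfb2 averaged 83.7 to 430 CPM in supporting cells (median 364), against 2.01 to 25.1 CPM in TECs and 20.6 to 65 CPM in hair cells. It was 4.98 ± 1.53 above TECs and 2.96 ± 1.37 above hair cells, with no overlap of batch means. Lower than in TECs were the receptor genes Tgfbr2 (-4.18 ± 2.07) and Tgfbr3 (-2.64 ± 1.94; -1.94 without batch 4, below the limit) and the ligand gene Tgfb3 (-2.72 ± 1.33). Tgfbr2 was detected in 7.5% of supporting cells and 40.7% of TECs. Fgf10, a growth factor of the sensory patches, had 136 to 264 CPM in supporting cells, 0 to 16 CPM in TECs (difference 5.27 ± 2.08) and 52.9 to 125 CPM in hair cells (1.00 ± 0.53, below the limit). Its receptor gene Fgfr2 was lower than in TECs (-3.71 ± 2.70) and was detected in 6.1% of supporting cells. Midkine and pleiotrophin, related heparin-binding growth factors, differed. Mdk was lower than in TECs (-2.62 ± 0.65; 35.8 to 200 against 472 to 933 CPM) and Ptn was 1.04 ± 0.43 above them. Both were above hair cells, by 3.82 ± 1.78 and 4.62 ± 0.60. Their receptor gene Ptprz1 was 4.83 ± 3.09 above TECs and stood at -1.54 ± 0.39 from hair cells. Taken apart, it stood at -1.76 ± 0.45 from type I and 4.45 ± 2.80 from type II hair cells (n = 3 batches).

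Of 35 Wnt pathway genes, 19 were compared with TECs, 2 called higher and 2 lower, with a median of 0.24, where 3.4% and 2.38% of all genes were called against TECs and 9.94% and 15.4% against hair cells. The receptor gene Fzd4 (4.94 ± 1.83) and the secreted Wnt binder Sfrp2 (3.04 ± 2.83; 1.87 without batch 5) were higher. The secreted inhibitors Wif1 (-5.50 ± 3.12) and Frzb (-2.69 ± 0.56) were lower. Against hair cells, 9 of 17 were called higher and 1 lower, Rspo3. Of 17 bone morphogenetic protein genes, 4 were compared with TECs and none was called at this limit, while 3 were compared with hair cells and Bmp7 and the decoy receptor gene Bambi were called above hair cells (2.39 ± 0.40 and 6.25 ± 1.59). Of 14 TGF-beta pathway genes, 9 were compared with TECs (1 higher, 3 lower, median -0.58) and 4 with hair cells (1 higher). Of 19 FGF pathway genes, 7 were compared with TECs (1 higher, 2 lower) and 5 with hair cells (3 higher). Of 17 Hippo pathway genes, 5 were compared with TECs and none was called, and 1 of 6 was higher than in hair cells. Genes of retinoic acid metabolism and of the striola had a median of -1.66 from TECs (1 of 7 lower, none higher; Tectb was higher without the 17 cells) and of -0.81 from hair cells (2 of 7 higher, 3 lower).

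Among transcription factors of the prosensory lineage, Sox9 was detected in 98.0% of supporting cells, 84.4% of TECs and 21.8% of hair cells, and was 4.74 ± 0.52 above hair cells and 1.24 ± 0.30 above TECs. Sox10 was 5.85 ± 0.51 above hair cells and overlapped TECs. Isl1 averaged 193 to 300 CPM in supporting cells, against 0 to 16.8 CPM in TECs (5.45 ± 2.05) and 16.3 to 183 CPM in hair cells (2.16 ± 1.18; 1.88 without batch 4 and 1.89 without batch 6). Sall2 was 3.55 ± 0.93 above TECs, and Eya4 2.26 ± 1.49 (1.66 without batch 5). Sox2, a factor commonly used to stain supporting cells, was detected in 26 of 147 supporting cells (17.7%), with batch means of 1.09 to 29.1 CPM, in 29 of 220 hair cells (13.2%) and in none of 135 TECs. Sox2 was too rarely detected to be compared by the rule. Of 20 listed factors 9 were compared, and 3 were called higher than in TECs and 4 than in hair cells, with none lower in either. Of all genes, 3.4% and 9.94% were called higher.

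Both gap junction genes compared, of 8 listed, were called higher than in TECs and hair cells, where 3.4% and 9.94% of all genes were. Gjb2 and Gjb6 encode connexins 26 and 30. Gjb2 had batch means of 260 to 529 CPM in supporting cells, 52.5 to 128 CPM in TECs and 0 to 2.51 CPM in hair cells, and differed by 2.37 ± 0.74 and 8.34 ± 1.07. Gjb6 had 396 to 561 CPM, against 13, 0, 0, 0 and 14.2 CPM in TECs (7.45 ± 2.22) and 0 to 6.03 CPM in hair cells (8.21 ± 1.2). The means of both genes in supporting cells stood apart from both other types. The glutamate transporter gene Slc1a3 was at 299 CPM in batch 2 and at 853 to 1226 CPM in the other batches of supporting cells, and was 2.76 ± 0.56 above TECs and 5.65 ± 1.10 above hair cells. The potassium channel gene Kcnj10 was 3.08 ± 2.46 above TECs and 6.14 ± 1.44 above hair cells, and its partner Kcnj16 was 4.90 ± 2.23 above hair cells and within 0.31 ± 0.56 of TECs. Atp1b1, a sodium pump subunit, was lower than in hair cells (-2.15 ± 0.51). Of 16 listed transport genes, 8 were compared with TECs (2 higher, 1 lower) and 7 with hair cells (4 higher, 1 lower). Of all genes, 3.4% were higher and 2.38% lower against TECs, and 9.94% and 15.4% against hair cells.

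Genes of the otolithic membrane, the gel above the hair bundles, were high in supporting cells and in part shared with TECs. Otog, which encodes otogelin, averaged 4828 to 8749 CPM in supporting cells, 557 to 1434 CPM in TECs (2.83 ± 0.35) and 6.54 to 132 CPM in hair cells (7.44 ± 1.61). Tecta, which encodes alpha-tectorin, was 7.71 ± 1.78 above hair cells and did not separate from TECs (-0.46 ± 0.48; 958 to 1346 against 1170 to 2854 CPM). Otol1, which encodes the otoconial collagen otolin, was 8.74 ± 1.23 above hair cells and within 0.22 of TECs on the log2 scale (-0.22 ± 0.21). Sparcl1, a matricellular protein also found in otoconia, was at 3581 to 5858 CPM and stood above both (5.72 ± 1.00 and 7.91 ± 2.31), and Otoa, otoancorin, was 1.78 ± 0.34 and 4.55 ± 1.2 above them. Oc90, the main protein of otoconia, was detected in 42.2% of supporting cells, 79.3% of TECs and 0 of 220 hair cells, which allows up to 1.36%. Of 15 listed genes, 8 of 9 compared were called higher than in hair cells (median 7.44), where 9.94% of all genes were. Against TECs 3 of 10 were called higher (median 0.78), where 3.4% of all genes were. These were Otog, Sparcl1 and Spock1, the last at 2.18 ± 1.39 and at 1.63 without batch 5.

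Adhesion genes split by family. Usher proteins tether and scaffold the hair bundle, and 7 of 10 compared were lower than in hair cells, where 15.4% of all genes were, among them Myo7a, Cdh23 and Adgrv1, which were detected in 2, 1 and 1 of the 147 supporting cells. Ush1c was the member called higher in both comparisons, by 2.62 ± 0.60 over TECs and 2.61 ± 0.51 over hair cells. Whrn, which encodes the scaffold whirlin, was 3.94 ± 1.42 above TECs, in 35.4% against 3.0% of cells, and overlapped hair cells. Of 23 basement membrane genes, 13 were compared with TECs, none was called higher and 4 lower (Hspg2, Lamc1, Col4a4, Col4a5), with a median of -1.40. Of all genes, 2.38% were called lower than in TECs. Hspg2 was at 0.118 to 26.2 CPM in supporting cells and 122, 220, 576, 289 and 194 CPM in TECs, and the Lamc1 difference of -2.16 was -1.35 without batch 3. Against hair cells the same list ran the other way, with 4 of 7 higher, such as the laminin gene Lama5 (4.81 ± 0.96), beside 9.94% of all genes. Epithelial keratin genes Krt8 and Krt18 were 6.57 ± 2.41 and 8.12 ± 1.47 above hair cells and at -0.79 ± 0.27 and -1.37 ± 0.35 from TECs, and claudin gene Cldn4, a marker by which TECs were chosen, was lower than in TECs.

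**Figure D3:**
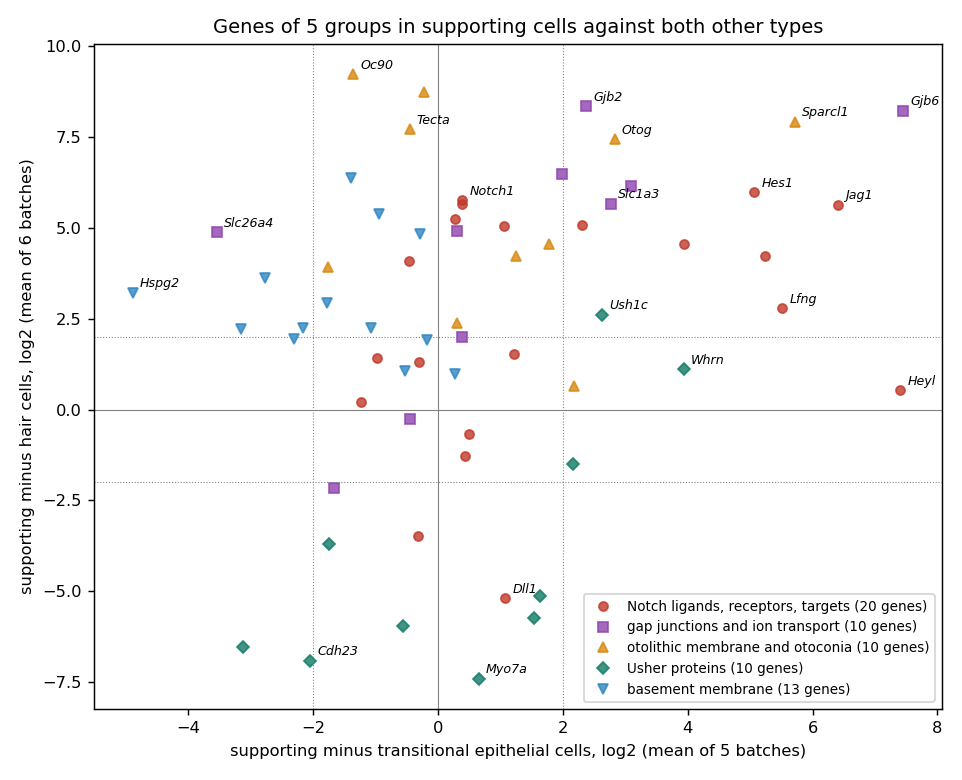
Each point is a gene of 5 groups, placed by the log2 difference of supporting cells from TECs (horizontal axis, mean of 5 batches) and from hair cells (vertical axis, mean of 6 batches), with dotted lines at -2 and 2. Jag1, Gjb6 and Sparcl1 lie above 5 on both axes, while Tecta and Oc90 are high against hair cells alone and Hspg2 (-4.90) is lowest against TECs.

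Against hair cells, all 6 batches could be used and the contrast was wider. Of 6351 genes compared, 631 were called higher (9.94%) and 981 lower (15.4%) in supporting cells, with a median of -0.33 over all genes. Size factors from the median of ratios, in place of CPM, moved this median by -0.15 and gave 598 higher and 1077 lower. Against type I hair cells alone, 690 of 6110 genes were called higher (11.3%) and 985 lower (16.1%), and against type II, in 3 batches, 692 of 7466 (9.27%) and 1126 (15.1%). Without the 17 cells with TEC markers, 1500 of the 1612 calls against hair cells were kept. Among listed genes, Tectb, Tead1 (2.13) and Atp1b2 (2.02) were then called higher, and Fzd7 (4.02), Sdc2 (2.66), Otogl (3.79), Nectin3 (2.66) and Itgb1 (1.86) were not called. The rule removed cells with hair cell markers, so low values of hair cell genes follow from the choice. Of the 12 genes furthest above hair cells, 4 were also called above TECs, namely Gjb2, Gjb6, Anxa2 and 1500015O10Rik. Of all genes compared with TECs, 3.4% were called higher. The share among the 631 genes called above hair cells was not counted. Mia, a secreted protein of cartilage, was found in every one of the 147 supporting cells and 135 TECs and in 7.3% of hair cells, with a difference of 9.99 ± 2.05 from hair cells and 0.24 ± 0.28 from TECs. The type IX collagen genes Col9a1 (8.77 ± 1.68 and 0.06 ± 0.48) and Col9a2 (8.04 ± 1.79 and 0.69 ± 0.32) were alike in this. Anxa2, which encodes a calcium-binding membrane protein, was above both, by 9.42 ± 2.10 and 2.04 ± 0.40 (1.91 without batch 1, 1.96 without batch 6). Bricd5, Cpxm2, Gm2a and 1500015O10Rik were further members of the 12. Of 18 hair cell genes, 15 of 16 compared were lower in supporting cells, with a median of -6.34, or -7.06 when genes with no read in supporting cells were set at 3 reads over all their cells. Spp1, osteopontin, had 16577 to 31918 CPM in hair cells and 0 to 106 CPM in supporting cells, and was detected in 7.5% of them.

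Genes of the response to tissue dissociation were also higher than in hair cells, in 9 of 11 compared, with a median of 3.68. Over all genes, 9.94% were called higher and the median was -0.33. Atf3 differed by 7.16 ± 2.09, Jun by 3.68 ± 0.88 and Dusp1 by 4.46 ± 1.22. Against TECs 1 of 12 was called higher, Dusp1 (2.57 ± 2.08, and 1.83 without batch 4), where 3.4% of all genes were. The list median was 0.11, beside -0.12 over all genes. Supporting cells and TECs thus stood at a like level of these genes, above hair cells of the same batches. How far they moved with other genes called against hair cells was not tested.

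Supporting cells of P4 were compared with those of P6. P4 was batch 6 alone, so age and batch cannot be told apart, and no test could be made. Each value is the P4 batch mean minus the mean of the 5 P6 batches on the log2(CPM + 1) scale, ± the SD of the P6 batches. A gene was called when the difference was 1 or more in size, the P4 batch lay outside the range of the P6 batches and 25% or more of the cells had reads at the age with the higher level. Of 4883 genes compared, 477 were called higher (9.77%) and 134 lower (2.74%) at P4, so 78.1% of calls were higher, and the median over all genes was 0.26. That share was 58.9% with means over cells of log2 values (358 higher, 250 lower), 70.4% with size factors and 69.5% with the mean over all P6 cells. In the same order, the median over all genes was 0.11, 0.20 and 0.11. Supporting cells held a median of 664944 reads at P4 and 506340 at P6. Thinning to 200000 reads left the median over all genes at 0.26. Among genes detected in at least 50% of cells, 118 were higher and 14 lower. TECs of the same batches gave 504 higher (10.1%) and 224 lower (4.49%), and hair cells 470 (7.42%) and 131 (2.07%).

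The otoconial gene Oc90 had the largest difference of the otolithic membrane genes. It averaged 444, 375, 202, 838 and 385 CPM in P6 batches 1 to 5 and 4069 CPM at P4, a difference of 3.33 ± 0.73 (n = 5 P6 batches). The P4 batch lay above every P6 batch, and Oc90 was detected in 66.7% of P4 and 33.3% of P6 supporting cells. In TECs of the same batches the difference was 0.89 ± 0.77. Of 15 otolithic membrane and otoconia genes, 2 of 11 compared were called higher at P4, where 9.77% of all genes were, Oc90 and Noxo1 (1.34 ± 0.61), a subunit organiser of the oxidase needed for otoconia, and none lower, while Otog (0.04 ± 0.37) and Tecta (0.22 ± 0.18) did not separate the ages. The cyclin gene Ccnd1 averaged 37.1, 93.6, 75.8, 107 and 161 CPM at P6 and 274 CPM at P4 (1.67 ± 0.77). The Notch target Heyl averaged 128, 83.4, 141, 179 and 163 CPM at P6 and 285 CPM at P4 (1.08 ± 0.42; 0.91 without batch 2, below the limit). It was the 1 Notch target called, of 7 compared, joined by Id1 (1.15) without the 17 cells, and Jag1 had 0.41 ± 0.60. Jun (1.70 ± 0.71), Cyr61 (1.14 ± 1.02; 0.71 without batch 2), Amotl2 (1.76 ± 1.21) and Nkd1 (2.62 ± 1.47), a feedback inhibitor of Wnt signalling, were also called higher. Mdk was at 1.21 ± 0.79 (0.89 without batch 3, 0.84 without the 17 cells, both below the limit). Of the dissociation genes 2 of 11 were called higher, Jun and Dnajb1 (1.19 ± 0.27), and the list median was 0.54, beside 9.77% called higher and a median of 0.26 over all genes. No member was called of the gap junction (2 compared), ion and water transport (8) and Usher (3) lists, and 2 transport genes were called without the 17 cells, as given below.

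Other listed genes were lower at P4. Ptprz1, the receptor of pleiotrophin and midkine, averaged 332, 279, 348, 291 and 285 CPM at P6 and 135 CPM at P4, a difference of -1.18 ± 0.14, with a P4 value below all 5 P6 batches. The rule gene Nptx1 was at 388, 844, 511, 1458 and 1320 CPM and at 357 CPM at P4 (-1.15 ± 0.83), and lost its call without batch 4 (-0.94) or batch 5 (-0.97). The Hippo pathway factor Tead1 was at -1.53 ± 0.63 and the TGF-beta repressor Skil at -1.23 ± 0.24 (-0.98 without the 17 cells with TEC markers, below the limit). Gadd45g, a stress-induced gene, was the best detected of the 12 largest decreases, with 196, 373, 202, 763 and 425 CPM at P6 and 77.3 CPM at P4 (-2.14 ± 0.82), in 47.2% and 17.9% of cells. Most of the other 23 genes with the largest differences in either direction were detected in under 42% of cells at both ages, such as the arginyl-tRNA synthetase gene Rars (4.66 ± 1.85; 25.6% of P4 and 11.1% of P6 cells) and the calcium release channel gene Itpr2 (-4.79 ± 0.71; 7.7% and 25.9%), so that few cells set the P4 mean. Without the 17 cells with TEC markers, 509 genes were higher and 142 lower, and 468 of the 611 calls were kept, Oc90 (3.97) and Ptprz1 (-1.18) among them. Listed genes that then lost their call included Skil (-0.98), Mdk (0.84), Gata3 (1.24), Nectin3 (-1.35), Stra6 (4.2) and Lamc1 (2.65). Those that gained one were the Notch target list gene Id1 (1.15) and the transport genes Kcnq1 (1.55) and Kcnj10 (-1.38), with Stk3 (-1.07).

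**Figure D4:**
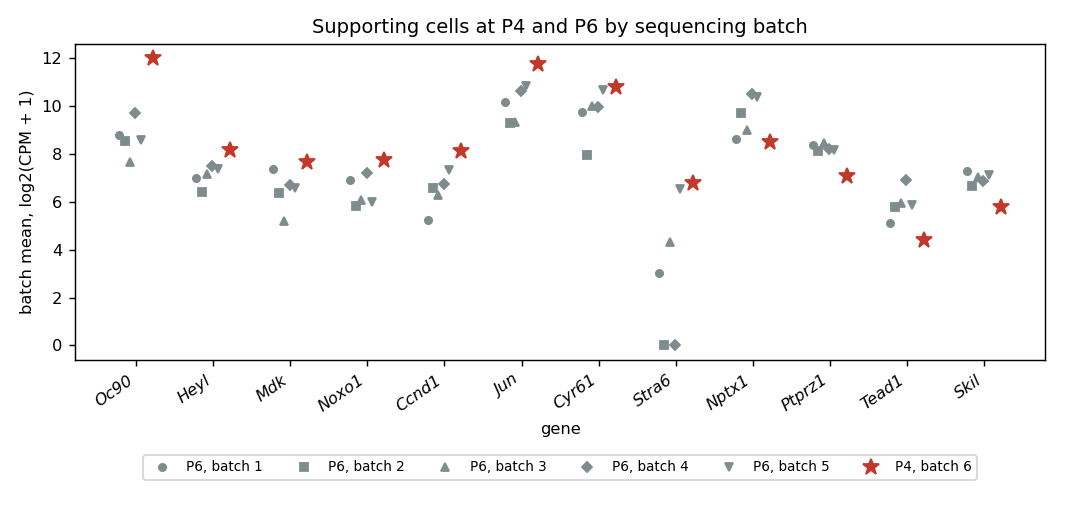
Each grey symbol is the mean of supporting cells in 1 P6 batch and each red star the P4 batch, on the log2(CPM + 1) axis, for 12 genes (horizontal axis). Oc90 at P4 (4069 CPM) lies far above its P6 batches and Ptprz1 (135 CPM) below its own.

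Few supporting cells expressed genes of the cell cycle. With 2 or more of Mki67, Top2a, Cdk1, Ccnb1 and Ccna2 at 10 CPM, 4 of 147 cells (2.72%, exact interval 0.75 to 6.82) were counted as cycling, 2 of 39 at P4 (5.13%, 0.63 to 17.3) and 2 of 108 at P6 (1.85%, 0.23 to 6.53). These intervals cover counting error over cells only, and cells are not replicates of an age. All P4 cells came from a single batch, so age and batch cannot be told apart and a difference between the ages was not tested. TECs held 4 of 135 (2.96%), and type I and II hair cells 0 of 220, where 3 cells of 220 are 1.36%. No gene of the S phase or G2 and M phase lists reached 25% of supporting cells, the highest being Mcm4 in 13.6%. Of the inhibitors and D cyclins, Ccnd1 was detected in 40.8% of supporting cells and 38.5% of TECs. Ccnd2 was lower than in TECs (-3.09 ± 1.09; 10.4 to 32.7 against 96.1 to 296 CPM). The inhibitor gene Cdkn1b was detected in 51.0% of supporting cells, with 0.62 ± 1.28 from TECs.

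Among the supporting cells themselves, Tectb varied most for its level. Genes detected in 20% to 80% of the 147 cells (4613 genes) were ranked by the SD of log2(CPM + 1) around batch means, above the running median SD of genes of like mean. Tectb, which encodes the otolithic membrane protein beta-tectorin and is known from the striola, was at rank 1 with an excess SD of 1.79, followed by Dusp1 (1.37), Cyr61 (1.33), Oc90 (1.07) and Igfbp3 (1.00). It kept rank 1 after thinning to 200000 reads and in P6 cells alone. Tectb was detected in 35 of 147 supporting cells (23.8%, exact interval 17.2 to 31.5), in 1 of 135 TECs and in 5 of 220 hair cells. Its batches held 7, 2, 5, 4, 11 and 6 such cells of 36, 8, 19, 20, 25 and 39, so all batches had some. In cells that had it, the level was high, with a median of 16106 CPM and 33 of the 35 at 20 CPM or more. It was at 0 in the other 112 cells, whose median reads (568128) were close to those of the 35 (563820).

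The cells with Tectb differed from the others in further genes. These values describe the same 147 cells, were found by ranking them, and carry no test. The retinoic acid degrading enzyme gene Cyp26b1 was detected in 19 of the 35 cells with Tectb (54.3%) and in 6 of the other 112 (5.4%), and the retinoic acid producing enzyme gene Aldh1a1 in 14.3% and 55.4%, with Aldh1a3 at 17.1% and 55.4%. In each of the 5 batches with at least 4 cells with Tectb, Cyp26b1 was more often and Aldh1a1 less often detected among them. Oc90 was in 5.7% and 53.6%, Fndc7 in 8.6% and 59.8%, and Cthrc1 in 2.9% and 55.4%. Isl1 was in 80% and 33%, Sfrp2 in 74.3% and 25.9%, the BMP decoy receptor gene Bambi in 57.1% and 16.1%, Wnt5a in 57.1% and 25.9%, and the carboxypeptidase gene Cpa6 in 62.9% and 8.0%. Each of Isl1, Sfrp2, Bambi, Wnt5a and Cpa6 went the same way in all 5 batches. Aldh1a3 was less often detected among cells with Tectb in 4 batches and more often in 1. Of other correlated genes, Lmo4 and Masp1 were more often detected in 4 batches and less often in 1. The share of all genes with the same direction in all 5 batches was not counted. The genes of the rule did not follow this split in the same way in every batch, with Dkk3 in 88.6% and 93.8%, Nptx1 in 85.7% and 71.4% and Agr3 in 100% and 98.2%. Nor did Notch1 (82.9% and 83.0%) or Hes1 (68.6% and 58.9%), while Jag1 was in 85.7% and 77.7% and higher in all 5 batches.

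Spearman correlations were taken around batch means over the 147 cells and 5061 genes. The highest coefficients with Tectb were those of Svopl (0.46), Emp1 (0.46), Stx8 (0.44), Rcan1 (0.43) and Ddah1 (0.42). The lowest were those of Sparc (-0.47), Itm2c (-0.41), Cryab (-0.36) and Nos1 (-0.35). Cells without a read of a gene take a value set by their batch mean, so the coefficients also carry differences between batches. Stx8, for example, was more often detected among cells with Tectb in 3 batches and less often in 2. The points share batches and depth, and Tectb itself correlated with reads per cell at -0.05. Sparc, a collagen-binding matrix protein, was detected in all 147 cells, at a mean of 1200 CPM with Tectb and 2900 CPM without. For Cyp26b1, detected in 25 cells (17.0%), the leading genes were Cpa6 (0.55), Frmd3 (0.51) and Wnt5a (0.46), Tectb came eighth (0.42), and the lowest was Aldh1a1 (-0.37). With 1 library a cell, correlations of rarely detected genes rest on few cells.

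**Figure D5:**
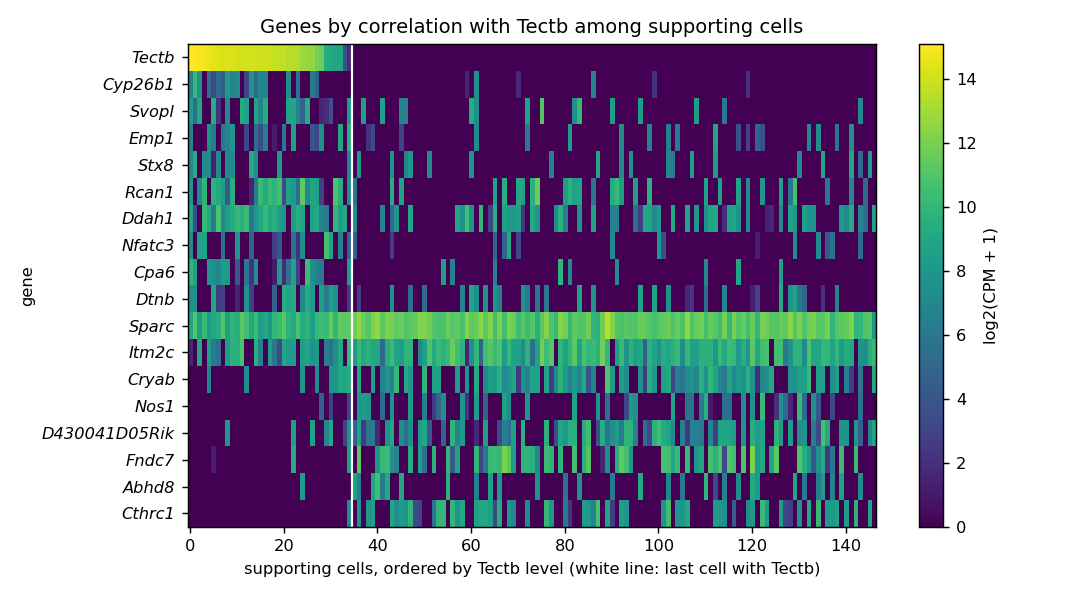
Each column is 1 of 147 supporting cells, ordered by Tectb level, and each row a gene, with colour giving log2(CPM + 1). The 35 cells left of the white line have Tectb, and 19 of the 25 cells with Cyp26b1 are among them, while Fndc7, Cthrc1 and Nos1 were detected in 3, 1 and 3 of them.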

How the data were processed

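Smart-seq2 libraries of 1155 single cells were used, of which 684 came from the epithelial dissection. The authors aligned the reads to GRCm38 (mm10) with STAR and quantified genes with RSEM, and what they deposited are expected counts per gene and cell from RSEM, without normalization, for 52627 gene rows (80.5% of values above 0 are whole numbers without tolerance; 26 symbols had been turned into dates). Whether counting used strand is not given in the sources used here. No molecular identifiers were used, so intervals and limits cover counting error only, at the 95% level. The 12 deposited samples are blocks of numbered cells without a group, so age, dissection and batch were taken from the cell table.

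Cells with at least 120000 reads and 950 genes and at most 10% mitochondrial reads were kept. Counts were divided by the cell total to give CPM, averaged per cell class and batch (at least 5 cells), and compared as log2 values with 1 CPM added. Cells were chosen by expression and are not replicates, and P4 is a single batch, so no count model (edgeR, DESeq2) and no test was run. The differences were checked on simulated counts. The members, the rule and the gene lists were chosen with earlier results of these data known. Named genes were those of the rule and of the lists, the 12 largest called differences in each direction (detected in at least 50% of the higher type, for cell types), the 20 most variable genes and the 10 genes most correlated with Tectb or Cyp26b1. The alternatives tried were pseudocounts of 0.1 and 10 CPM, no detection filter, means of log values, size factors, thinning to 200000 reads, other marker limits, leaving out the 17 cells with TEC markers and leaving out each batch. Chosen after seeing the data were the detection limit of 50%, the mean over all P6 cells, and the addition of 51 cells with both hair cell marker sets and of 16 cells with TEC and roof markers. Gene positions are from GENCODE vM21. Python 3.11.15, numpy 2.4.6, pandas 2.3.3, scipy 1.17.1 and matplotlib 3.10.9 were used. Doublets were not called.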

Additional observations from a re-analysis of the deposited data

Results flagged for a closer look

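Of 35 values compared between the 5 P6 batches, 3 had an end value set apart from the rest by Dixon's criterion, which chance alone gives in about 1 of 20 groups. The share of supporting cells with Tectb was 44% in batch 5 and 19.4% to 26.3% in the other 4. Gjb2 averaged 260 CPM in batch 1, with the nearest other batch at 453 CPM. Tgfb2 averaged 83.7 CPM in batch 2, which held 8 supporting cells, with the nearest other batch at 360 CPM.

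Among 431 genes, Rictor, a subunit of the mTORC2 kinase complex, was called in opposite directions at P4 in 2 cell types. In supporting cells the difference from P6 was -2.25 ± 0.47 (n = 5 P6 batches; -2.37 without batch 3 and -2.28 without batch 4, both without a call; -2.21 and no call without the 17 cells with TEC markers), and in TECs it was 1.98 ± 0.50 (n = 4). The difference between the types was not tested.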

How the results depend on the processing

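Cell types were compared within each batch, so the batches pair them there. By replicate number, no paired analysis was possible because the deposited samples have neither groups nor replicate numbers and P4 is 1 batch. The count of supporting cells stayed between 130 and 150 under all 5 other rules. The median of genes per cell was 2519 when a gene needed 5 reads. Of 245 called values of named genes, none turned direction in 3363 recomputed values, and 292 moved by more than their SD over batches. Many of these values could not turn, since a call needs 1 sign in every batch or P4 outside the P6 range. Leaving out a batch, another pseudocount or no detection filter cannot reverse such a value. Without a detection filter, 412 genes were higher and 311 lower than in TECs, 1033 and 1483 against hair cells, and 2264 and 492 at P4; the added genes are rarely detected by construction. A pseudocount of 10 CPM left 71 genes lower than in TECs. Means of log values gave 250 genes lower at P4, and the 50% detection limit 118 higher and 14 lower. In P6 cells alone, 13 of the 20 most variable genes were kept. For these the cause was not tested.

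Leaving out 1 batch gave 167 to 184 genes higher and 118 to 134 lower than TECs, 626 to 650 and 983 to 1047 against hair cells, and 474 to 585 and 147 to 193 at P4. The P4 batch cannot be left out. Weakly expressed genes go undetected in some cells at these depths, so a low share is not absence.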

Other observations

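Outside the epithelial dissection, 2 of 375 kept cells met the marker rule for supporting cells (0.533%, exact interval 0.065 to 1.91). Both cells came from batch 5, and neither held 2 mesenchymal markers.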
